A study of Mus musculus with 8 samples.

Results

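A set of 10 genes of the transforming growth factor beta (TGF-beta) pathway was followed in RNA sequencing of small cell lung cancer (SCLC) cells of the mouse: the ligand genes Tgfb1, Tgfb2 and Tgfb3, the receptor genes Tgfbr1, Tgfbr2 and Tgfbr3, the signal transducer genes Smad2 and Smad3, and the inhibitor genes Smad7 and Skil. They were chosen by name, as 10 of the 22691 genes in the count table, and all 10 were found there. SCLC is a neuroendocrine lung tumor. The cells came from primary mouse lung tumors and were grown as cell lines with empty vector or with mouse Nfib overexpressed; Nfib is a member of the nuclear factor I (NFI) transcription factors. All 8 libraries share the label invCAG-Mycl-Luc, a Mycl transgene whose name gives the CAG promoter, the deletion of Rb1 and a background of FVB/n and 129/Ola mice, so that the empty vector cells carry these too. There were 4 cultures, each with 1 empty vector and 1 Nfib library, and they are numbered here as in the sample titles: culture 1 is Lmyc1 with the word old, culture 2 Lmyc3 old, culture 3 Lmyc3 new and culture 4 Lmyc5 new. No source used here says what old and new mean, how cultures 2 and 3 of the same line differ, or which promoter drives the introduced Nfib. Both libraries of a number come from the same culture, and nothing shows separate animals or transfers behind the arms: the p-values reflect how these libraries scatter, which may be technical.

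TGF-beta ligands are secreted in a latent form, bound to their own propeptide and to latent TGF-beta binding proteins in the matrix. An active ligand binds the type II receptor Tgfbr2, which phosphorylates the type I receptor Tgfbr1, while the large co-receptor Tgfbr3 (betaglycan) presents ligand, Tgfb2 above all. Tgfbr1 then phosphorylates Smad2 and Smad3, which enter the nucleus with Smad4 and regulate genes that include their own inhibitors, Smad7 and Skil. In epithelial cells the pathway is known for growth arrest and for the shift to a mesenchymal state.

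Levels are given as CPM (counts-per-million, scaled by edgeR's TMM factors) and, where genes are compared with each other, as CPM divided by the exonic length in kilobases (RPKM). The 8 libraries held between 21815264 and 29934021 counts, so that a library with 0 counts of a gene allows a level of up to 3 counts, or 0.102 to 0.142 CPM (counting error only). The overexpressed gene checked the labels: Nfib lay between 71.9 and 486 CPM with empty vector and between 1280 and 4675 CPM with Nfib, higher in each pair. Neuroendocrine markers were present in every library, with all 10 listed markers passing the filter on low counts. Of 10 fibroblast and smooth muscle markers, 7 (Col1a1, Col1a2, Col3a1, Dcn, Lum, Acta2 and Tagln) stayed under 1 CPM in all 8 libraries. Of the 5 leukocyte markers present, 4 stayed under 1 CPM in all 8 libraries and 1 passed the filter. Ptprc, among the 4, had a count in 1 library, at 0.0435 CPM. The leukocyte list summed to between 1.52 and 2.49 CPM. The summed CPM of the fibroblast list was 6.71 to 15.95 with empty vector and 4.22 to 39.9 with Nfib, the highest value, in the Nfib library of culture 2, being mostly Thy1 (36.5 CPM). Of the endothelial markers Cdh5 was at most 0.045 CPM, while Vwf was at 38.7 to 649 CPM.

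The start regions of Tgfb2, Smad3 and Tgfbr2 are shown because these were the genes whose level was highest in culture 2 by the widest margins and because Tgfb2 is the member that passed the test of forced Nfib. Each sequence is the 250 bases before the RefSeq start site (GRCm38.p6), 5′ to 3′ on the gene's own strand. Capitals mark matches to TTGGC, the core letters of an NFI site, in the sequences of Smad3 and Tgfbr2. In the sequence of Tgfb2 they mark the TATA box, searched as TATAAA. The windows are chr1:186705990-186706239 for Tgfb2, chr9:63757995-63758244 for Smad3 and chr9:116175364-116175613 for Tgfbr2, all on the minus strand.
Tgfb2: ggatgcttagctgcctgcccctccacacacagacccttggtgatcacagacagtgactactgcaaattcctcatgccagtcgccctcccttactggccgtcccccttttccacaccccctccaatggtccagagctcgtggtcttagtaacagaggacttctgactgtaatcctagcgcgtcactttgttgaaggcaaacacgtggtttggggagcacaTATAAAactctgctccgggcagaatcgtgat
Smad3: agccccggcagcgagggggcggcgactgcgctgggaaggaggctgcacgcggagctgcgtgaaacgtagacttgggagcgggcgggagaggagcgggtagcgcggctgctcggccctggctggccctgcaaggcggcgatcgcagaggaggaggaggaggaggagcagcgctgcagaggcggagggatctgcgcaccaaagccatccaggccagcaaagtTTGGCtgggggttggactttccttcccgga
Tgfbr2: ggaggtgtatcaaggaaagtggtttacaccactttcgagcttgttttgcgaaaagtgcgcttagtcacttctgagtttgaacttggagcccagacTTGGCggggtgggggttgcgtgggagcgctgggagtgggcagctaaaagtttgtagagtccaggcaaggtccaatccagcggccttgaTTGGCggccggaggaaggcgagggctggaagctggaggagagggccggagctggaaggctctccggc

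The window of Tgfb2 holds TATAAA from position -31 to -26 before the start, which 12.4% of 32851 promoter windows of the same length hold on either strand, and has no match to TTGGC. A match to TTGGC, which 41.5% of all windows hold, stands in the window of Smad3 at -30 to -26 and in that of Tgfbr2 at -155 to -151 and at -67 to -63. TTGGC also stands in both windows of Tgfbr1 and not in that of Tgfb1. No member window holds the full NFI site, TTGGC and its reverse complement a set gap apart (0.0365% of windows). Smad3 also has 2 matches to the GC box GGGCGG (32.7% of windows), which Tgfb2 and Tgfbr2 lack. None of the 3 windows matches the cyclic AMP response element TGACGTCA (1.55%), the AP-1 motif by its usual letters (6.75%) or the Smad palindrome GTCTAGAC (0.167%), searched on both strands. Such matches describe the letters of these windows only. Of the 10 members, 5 had a window in the RefSeq table.

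Per length, the members fell into a high and a low set. Tgfbr1 was the most abundant, with a mean over 8 libraries of 20.7 RPKM, followed by Tgfb3 (9.25), Smad2 (8.44), Skil (8.28) and Tgfbr3 (4.33). Smad7 (1.64), Tgfb2 (1.29), Tgfb1 (0.924) and Smad3 (0.593) were low, and Tgfbr2, the receptor that binds active ligand first, was the lowest at 0.0486 RPKM. Among the ligands Tgfb3 was therefore the main transcript in cultures 1, 3 and 4 and also the highest of the 3 in culture 2, where Tgfb2 reached 4.06 against 9.13 RPKM for Tgfb3 as means of its 2 libraries. These are bulk libraries, in which fewer cells making a transcript and less transcript per cell cannot be told apart.

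**Figure D1:**
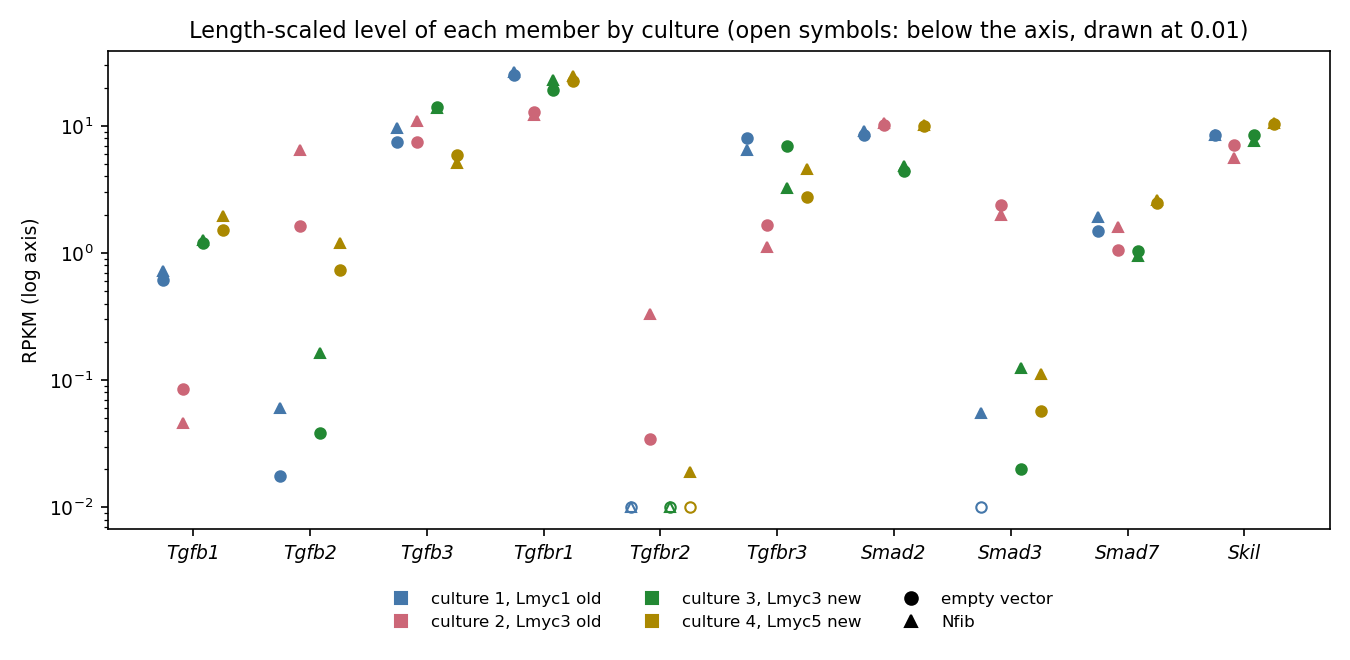
RPKM of each of the 10 members (log axis) in the 8 libraries, colored by culture, with circles for empty vector and triangles for Nfib; open symbols lie below 0.01 RPKM and are drawn there. Tgfbr1, Tgfb3, Smad2 and Skil stay within a narrow band, while Tgfb1, Tgfb2, Tgfbr2 and Smad3 spread widely by culture.

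The first comparison asked how the cultures differ, with the arm as a covariate. Pairs of cultures were contrasts of the same fit on all 8 libraries, so that their p-values use the scatter of the whole fit. Culture 2 was at the end of the order in most members. Tgfb2 and Smad3 were highest there and Tgfb1 lowest, with the highest culture mean 104.7-fold, 71.5-fold and 26.7-fold above the lowest, and Tgfbr2 had nearly all of its reads there. These folds are imprecise, because the lowest means rest on few counts. In culture 1 Tgfb2 had 3 and 8 counts and Smad3 1 and 7, and in culture 2 Tgfb1 had 9 and 5. Tgfbr1, Tgfbr3 and Skil were also lowest in culture 2, by smaller margins. Culture 3, which carries the same line name, had the lowest Smad2 and low Tgfb2 and Smad3. All 9 members that passed edgeR's filter on low counts differed between the 4 cultures in edgeR's quasi-likelihood F-test (Benjamini-Hochberg adjusted p under 0.05), but so did 76.7% of the 13380 genes tested, so that a difference between cultures is the usual case in this table.

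**Figure D2:**
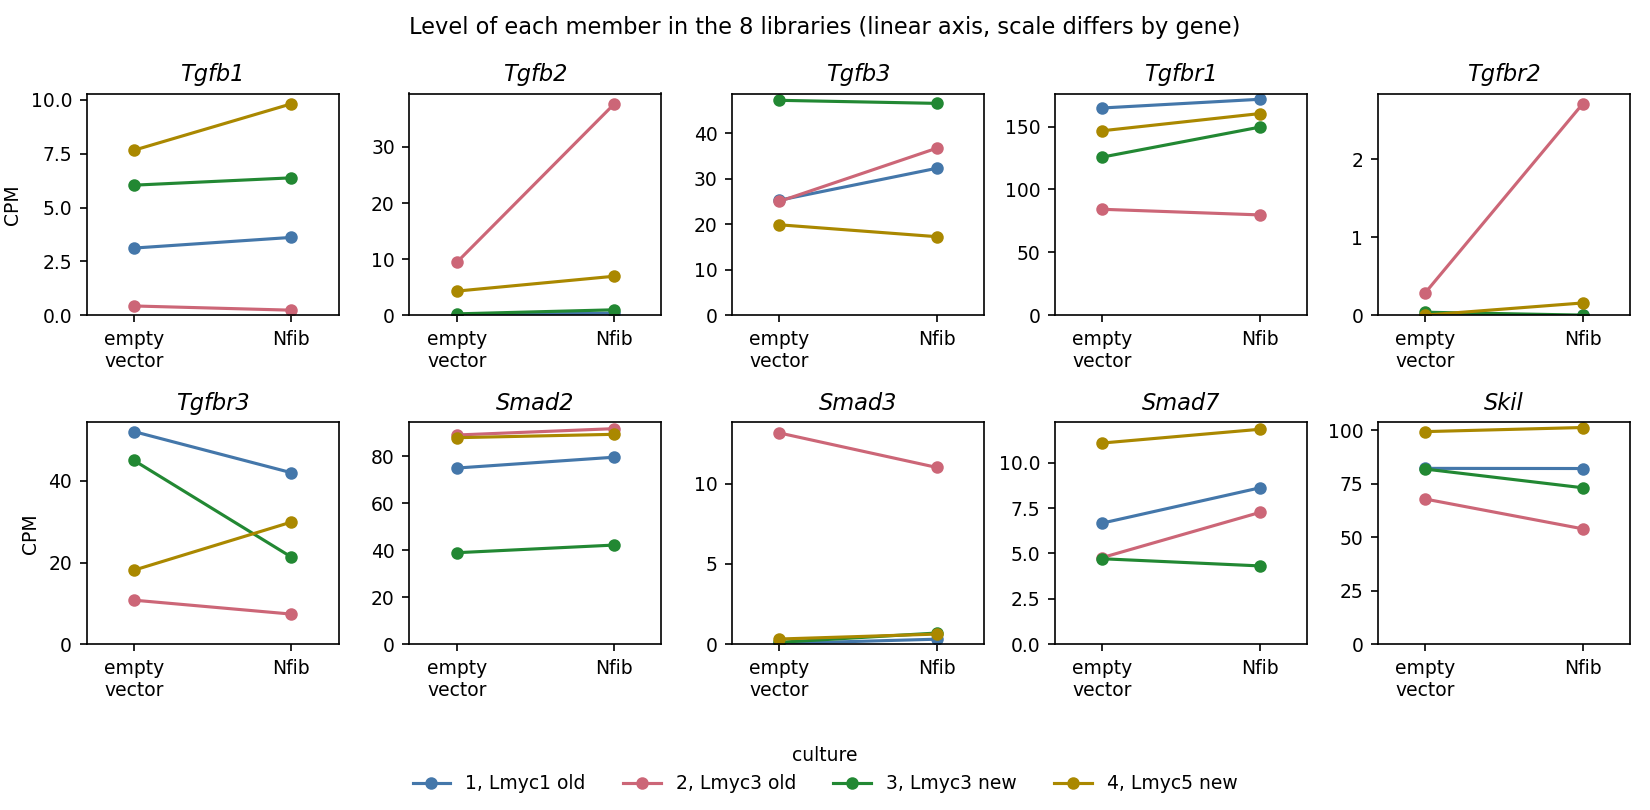
CPM of each member with empty vector and with Nfib (linear axes from 0, 1 panel per gene); a line joins the 2 libraries of a culture. For Tgfb2, Tgfbr2 and Smad3 the line of culture 2 lies above the other 3, and for Tgfb1, Tgfbr1, Tgfbr3 and Skil it lies below them.

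Among the ligands, Tgfb1 (chromosome 7, 25687002 to 25705077), the most widely expressed ligand in most tissues, had 3.12 and 3.61 CPM in culture 1, 0.425 and 0.230 in culture 2, 6.04 and 6.38 in culture 3, and 7.66 and 9.82 in culture 4, the empty vector library first. Culture 2 was below the other 3 in both arms. The order of the means was culture 4, 3, 1 and 2. Cultures 4 and 3 were not called different (edgeR adjusted p of 0.181). Culture 3 exceeded culture 1 by 0.89 on the log2 scale (0.0477), and culture 1 exceeded culture 2 by 3.34 (0.00111). Tgfb2 (chromosome 1, 186623186 to 186705992), a ligand prominent in the nervous system and in development, was highest in culture 2, while the other 3 cultures stood in the same order (4, 3, 1) as for Tgfb1. Its empty vector libraries had 0.102, 9.40, 0.222 and 4.28 CPM in cultures 1 to 4, that is 3, 199, 6 and 95 counts. Culture 2 exceeded culture 4 by 1.78 on the log2 scale (edgeR adjusted p of 0.00953) and culture 4 exceeded culture 3 by 3.48 (0.00198). Cultures 3 and 1 were not called different (0.121). Tgfb3, a ligand of epithelial and palate development, was present at between 17.3 CPM (Nfib library of culture 4) and 47.3 CPM (empty vector library of culture 3) and varied least among the ligands, by 1.33 on the log2 scale between the extreme cultures. Cultures 2 and 1 were close in Tgfb3 (edgeR adjusted p of 0.709).

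Among the receptors, Tgfbr1 had 165 and 172 CPM in culture 1, 84.2 and 79.7 in culture 2, 126 and 149 in culture 3, and 147 and 160 in culture 4. Culture 2 was the lowest, 0.74 below culture 3 on the log2 scale (edgeR adjusted p of 0.0015). The other neighbours in the order were not called different (0.284 and 0.211). Tgfbr3 was also lowest in culture 2, at 10.8 and 7.35 CPM against 18.1 to 52.1 CPM in the other 6 libraries, and culture 4, the next, exceeded it by 1.47 (0.0314). Its other neighbours were not called different (0.321 and 0.476).

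Tgfbr2 (chromosome 9, 116087698 to 116175363) had 0 counts in 4 libraries, 1 and 4 counts in 2 others, and 6 and 59 counts in the empty vector and Nfib libraries of culture 2. Those 65 counts stand against 5 in the other 6 libraries together. The 59 counts correspond to 2.71 CPM, the only value above 1 CPM. The filter removed Tgfbr2; in a fit on every gene with at least 1 count the cultures differed (edgeR adjusted p of 0.00426), with a fitted range that rests on a culture at 0 and is therefore not given as a fold.

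Of the Smads, Smad2 had 74.9 and 79.5 CPM in culture 1, 88.9 and 91.6 in culture 2, 38.9 and 42.1 in culture 3, and 87.8 and 89.2 in culture 4. Culture 3 had the 2 lowest values, 0.93 below culture 1 on the log2 scale (edgeR adjusted p of 0.000655). As neighbours, cultures 2, 4 and 1 were not called different (0.756 and 0.0623). Culture 2 did exceed culture 1, which is not its neighbour in the order, by 0.23 (0.0404). Smad3 (chromosome 9, 63646767 to 63757994), a Smad that binds DNA directly, had 279 and 240 counts in culture 2 and between 1 and 16 counts in each of the other 6 libraries. That is 13.2 and 11.02 CPM against at most 0.690 CPM. Culture 2 exceeded culture 4, the next, by 4.83 on the log2 scale (edgeR adjusted p of 0.00356). The other 3 cultures were not called different from their neighbours (0.764 and 0.350). Smad3 would not have passed the filter on low counts without the libraries of culture 2. Its test against culture 2 is therefore not independent of the high level there. In cultures 1, 3 and 4 Smad2 therefore made up nearly all of the summed Smad2 and Smad3 reads, whereas in culture 2 Smad3 reached 2.18 against 10.3 RPKM for Smad2.

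Of the inhibitors, Smad7, which blocks the type I receptor, was highest in culture 4 (11.1 and 11.8 CPM) and lowest in culture 3 (4.71 and 4.31 CPM). No neighbours in its order were called different (edgeR adjusted p of 0.0758, 0.243 and 0.194). Cultures further apart in that order did differ. Culture 4 exceeded culture 3 by 1.34 on the log2 scale (0.00614) and culture 2 by 0.95 (0.0179), and culture 3 lay 0.74 below culture 1 (0.0497). Skil (SnoN), a corepressor that binds Smads in the nucleus, lay between 54.0 and 101 CPM and had the smallest range of the 9 tested members, 0.73 on the log2 scale, with culture 2 below culture 3 by 0.35 (0.0336).

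Over the 6 pairs of cultures, p-values being adjusted over all genes within each pair, the members called were 7 of 9 for culture 2 against 1, 8 of 9 for 3 against 2 and 8 of 9 for 4 against 2, where 48.4%, 59.9% and 50.2% of all tested genes were called. The pairs without culture 2 called fewer: 4 of 9 for 3 against 1, 3 of 9 for 4 against 1 and 5 of 9 for 4 against 3, beside 38.4%, 46.6% and 45.8% of all genes. Without culture 2, 7 of the 9 members still differed between the remaining cultures, beside 66.3% of all genes, with Smad3 (edgeR adjusted p of 0.178) and Tgfbr3 (0.213) no longer passing. Without culture 3, where 59.7% of all genes were called, Smad2 (0.0931) and Tgfb3 (0.0728) did not pass, and without culture 4 (62.4%) Smad7 did not (0.123). Members were also matched with the genes most like them over the 8 libraries by Pearson correlation of log2 CPM, a description in which the points share cultures. The closest genes were Vipr1, the VIP receptor (r of 0.998), 6720489N17Rik (0.997) and the apoptosis inhibitor Bcl2 (0.994) for Tgfb1, and Ctps (0.986), Ciz1 (0.983) and Pelo (0.982) for Tgfb2. For Smad3 Adh5 (0.985) and Gucy1b3 (0.984) were among the closest. They were for Tgfbr2 Ints2 (0.982), Rabep2 (0.977) and Rad1 (0.972), and for Tgfbr3 Os9 (0.976), Ptprt (0.972) and Chpf (0.971). These genes were picked as the highest of 12596 candidates, or 12597 for Tgfbr2, so high values of r are selected. The values for Tgfbr2 rest largely on its 59 counts in the Nfib library of culture 2.

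The second comparison asked what forced Nfib changed within each culture. Tgfb2 rose with Nfib, 1 of the 9 members tested, and no member fell. In culture 1 it went from 0.102 to 0.348 CPM, in culture 2 from 9.40 to 37.7, in culture 3 from 0.222 to 0.948 and in culture 4 from 4.28 to 6.94 CPM. The values of cultures 1 and 3 rest on few counts, 3 and 8 in culture 1 and 6 and 22 in culture 3, empty vector first. The Nfib library was the higher one in each pair, but the groups overlap, because the cultures differ more than the arms: the means were 3.50 ± 4.39 CPM with empty vector and 11.5 ± 17.7 CPM with Nfib (SD, n = 4). The other ligands, the receptors, the Smads and their inhibitors had values on either side of 0 or small changes.

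The words rose and fell refer to DESeq2's Wald test with the replicate number as a block, the paired test, at a Benjamini-Hochberg adjusted p under 0.05. On simulated counts this test made more false calls than its threshold states. It called 4.06% of the 13380 genes, 1.86% higher and 2.20% lower, and all members together had a median log2 fold change of 0.10 beside -0.01 over all genes tested. The primary test, edgeR's quasi-likelihood test without the block, called 0% of genes (83 had an unadjusted p under 0.05), and with the replicate block it also called 0% (2012 unadjusted). For Tgfb2 the paired DESeq2 log2 fold change was 1.54 ± 0.39 (SE, adjusted p of 0.00457), and the paired edgeR value was 1.52 ± 0.30 with an adjusted p of 0.172; edgeR gives no SE, and the value after ± is the estimate divided by the square root of F. The within-pair log2 ratios, computed with a prior count of 2, were 1.23, 1.99, 1.76 and 0.69. The call rests on cultures 2 and 3: without replicate 2 the DESeq2 adjusted p was 0.351 (1.39 on the log2 scale) and without replicate 3 it was 0.0508 (1.42), whereas it passed without replicate 1 (0.0164) or 4 (0.000383). Both are cultures of Lmyc3, and with their pairs summed into 1 Tgfb2 passed narrowly (DESeq2 adjusted p of 0.0477, 1.48 on the log2 scale). The summed CPM of the fibroblast list was also higher with Nfib in 3 of 4 cultures, from 15.95 to 20.5 in culture 1, from 15.3 to 39.9 in culture 2 and from 9.33 to 13.6 in culture 4, and lower in culture 3, from 6.71 to 4.22. The value of 39.9 was mostly Thy1. Of the 10 genes of that list 2 were tested, and none passed. Of the 10 neuroendocrine markers Nkx2-1 (-0.39 ± 0.11, SE, DESeq2 adjusted p of 0.0122) and Eno2 (-0.51 ± 0.15, 0.0268) fell, and 8 did not pass. The summed list went from 3623 to 2116 CPM in culture 2, from 4752 to 4481 in culture 3 and from 3910 to 3480 in culture 4. In culture 1 it was higher with Nfib, at 3184 against 2981 CPM. Of the 5 lung epithelium markers tested, the water channel gene Aqp5 rose, with 0.102 and 0.392 CPM in culture 1, 0.472 and 8.18 in culture 2, 0 and 0.733 in culture 3 and 3.38 and 11.2 in culture 4 (adjusted p of 0.00119), and the list median was 1.03 on the log2 scale. The part of these marker shifts in the rise of Tgfb2 was not tested. An antisense gene, Gm29491, shares 124 exonic bases with Tgfb2 and had 10 counts in all 8 libraries together.

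**Figure D3:**
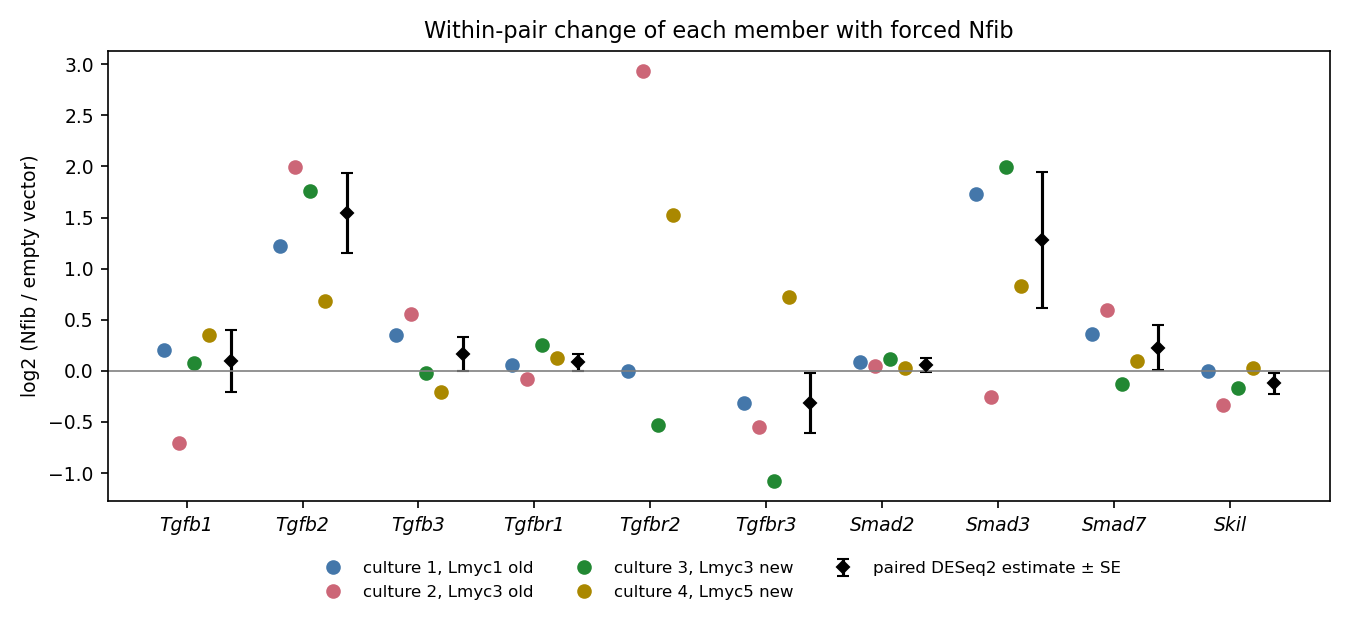
Log2 ratio of Nfib to empty vector in each culture (points, prior count of 2) for the 10 members, with the paired DESeq2 estimate and its SE as black diamonds (not fitted for Tgfbr2). Tgfb2 is above 0 in all 4 cultures, and for Smad3 culture 2 lies below 0 and the other 3 above.

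Tgfb1 and Tgfb3 did not pass. Tgfb1 had log2 ratios of 0.21, -0.70, 0.08 and 0.35 and a paired DESeq2 log2 fold change of 0.10 ± 0.30 (SE, adjusted p of 0.963). Tgfb3 was higher with Nfib in the 2 cultures called old (0.35 and 0.55) and not in the 2 called new (-0.02 and -0.20). The interaction of Nfib with that word gave -0.56 on the log2 scale with an unadjusted p of 0.0223 and an adjusted p of 0.9997 in edgeR with the block. That interaction called 0% of all genes (405 had an unadjusted p under 0.05) and no member.

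Of the receptors, Tgfbr1 had ratios between -0.08 and 0.25 and a paired DESeq2 log2 fold change of 0.08 ± 0.08 (SE, adjusted p of 0.779). Tgfbr3 was lower with Nfib in 3 cultures, most in culture 3 where it went from 45.1 to 21.3 CPM, and higher in culture 4, from 18.1 to 29.9 CPM, so that its log2 fold change of -0.32 ± 0.29 did not pass (0.741). In culture 2 Tgfbr2 had 59 counts with Nfib against 6 with empty vector at like depth (22192747 and 21815264 counts), but it was not detectably changed over the 4 pairs, with a DESeq2 log2 fold change of 1.90 ± 1.72 (SE, adjusted p of 0.720) and an edgeR adjusted p of 0.280 in paired fits on every gene.

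Smad2 differed little between the arms, with ratios of 0.09, 0.04, 0.12 and 0.02 and a DESeq2 log2 fold change of 0.06 ± 0.07 (SE, adjusted p of 0.839). Smad3 had 1, 3 and 7 counts with empty vector and 7, 16 and 16 counts with Nfib in cultures 1, 3 and 4, which sums to 11 against 39, while in culture 2 it went from 279 to 240 counts. Its paired DESeq2 log2 fold change of 1.28 ± 0.67 did not pass (SE, adjusted p of 0.372). Without replicate 2 it was 2.16 ± 1.235 with an unadjusted p of 0.0810 and no adjusted p, and the paired edgeR test then gave 1.89 with an adjusted p of 0.274. The inhibitors that TGF-beta signalling induces did not pass: Smad7 had ratios of 0.36, 0.60, -0.12 and 0.09 (DESeq2 0.23 ± 0.22, adjusted p of 0.762) and Skil ratios between -0.33 and 0.03 (-0.12 ± 0.10, adjusted p of 0.678).

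Other genes of the pathway were read from lists chosen by pathway role, with earlier results of these data known. Of the 69 genes tested in 6 lists, 6 (8.7%) passed the paired DESeq2 test, 3 in each direction, beside the 4.06% called over all genes. Whether these shares differ was not tested. In the list for storage and activation of latent ligand, 2 of 10 tested genes rose and 1 fell. Ltbp1 and Ltbp4 encode latent TGF-beta binding proteins, which hold the ligand in the matrix, and Thbs1 encodes thrombospondin 1, which can activate it. Ltbp4 (chromosome 7, 27305136 to 27337692) had 6.10 and 14.8 CPM in culture 1, 52.0 and 54.1 in culture 2, 11.04 and 32.2 in culture 3 and 53.1 and 109 in culture 4, empty vector first (log2 0.97 ± 0.25, adjusted p of 0.00647). Its change in culture 2 was thus the smallest, the reverse of Tgfb2. Ltbp1 (chromosome 17, 75005568 to 75392512) had 0.136 and 1.83 CPM in culture 1, 1.13 and 2.39 in culture 2, 0.815 and 2.59 in culture 3 and 41.1 and 60.2 in culture 4 (1.55 ± 0.44, adjusted p of 0.0193), so that culture 4 held most of it in both arms. Thbs1 fell from 21.9 to 9.49, from 4.58 to 0.965 and from 163 to 50.7 CPM in cultures 1 to 3 and was at 3.06 and 3.04 CPM in culture 4 (-1.29 ± 0.32, adjusted p of 0.00425). The gene of highest mean CPM over the 8 libraries was Furin, a protease that cleaves the TGF-beta precursor, at 33.0 to 91.5 CPM, and it did not pass (-0.29, adjusted p of 0.258).

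Among genes used as readouts of TGF-beta signalling 1 of 10 tested rose and 1 fell. Pmepa1 (chromosome 2, 173224458 to 173276533), a target that restrains Smad2 and Smad3, had 0.169 and 3.13 CPM in culture 1, 16.6 and 30.4 in culture 2, 11.3 and 23.7 in culture 3 and 33.4 and 62.6 in culture 4 (log2 1.51 ± 0.45, DESeq2 adjusted p of 0.0243). The cell death gene Bmf fell, with 22.7 and 15.8 CPM in culture 1, 17.2 and 7.99 in culture 2, 37.2 and 22.2 in culture 3 and 23.9 and 8.65 in culture 4 (-0.96 ± 0.21, adjusted p of 0.000399). The 2 readouts of highest mean CPM, Tsc22d1 (-0.14, adjusted p of 0.523) and the cell cycle inhibitor Cdkn1a (0.21, 0.643), did not pass. Of the 23 readouts present, 10 stayed under 1 CPM in all 8 libraries, among them Ctgf, Snai1, Col1a1 and Acta2.

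In the activin and nodal branch, which also acts through Smad2 and Smad3, the type I receptor gene Acvr1c (ALK7) was the 1 of 9 tested genes that fell. It went from 104 to 45.2 CPM in culture 1, from 1.70 to 1.01 in culture 2, from 2.59 to 1.47 in culture 3 and from 10.4 to 3.47 in culture 4 (-1.17 ± 0.21, DESeq2 adjusted p of 1.09e-05). The branch's genes of highest mean CPM, Acvr2a (-0.02) and Acvr1b (-0.09), did not pass. None of 13 genes for receptor partners and turnover (Fkbp1a and Strap, those of highest mean CPM, with log2 changes of 0.04 and 0.11), none of 15 other Smads and nuclear partners (Ep300 at -0.20 and Trim33 at -0.15) and none of 12 genes of the BMP branch (Bmpr2 at -0.18 and Id2 at 0.37) passed. The list medians were 0.09 for latency and activation, -0.04 for the readouts, -0.23 for activin and nodal, 0.01 for receptor partners, -0.01 for other Smads and 0.26 for the BMP branch, beside -0.01 over all genes.

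**Figure D4:**
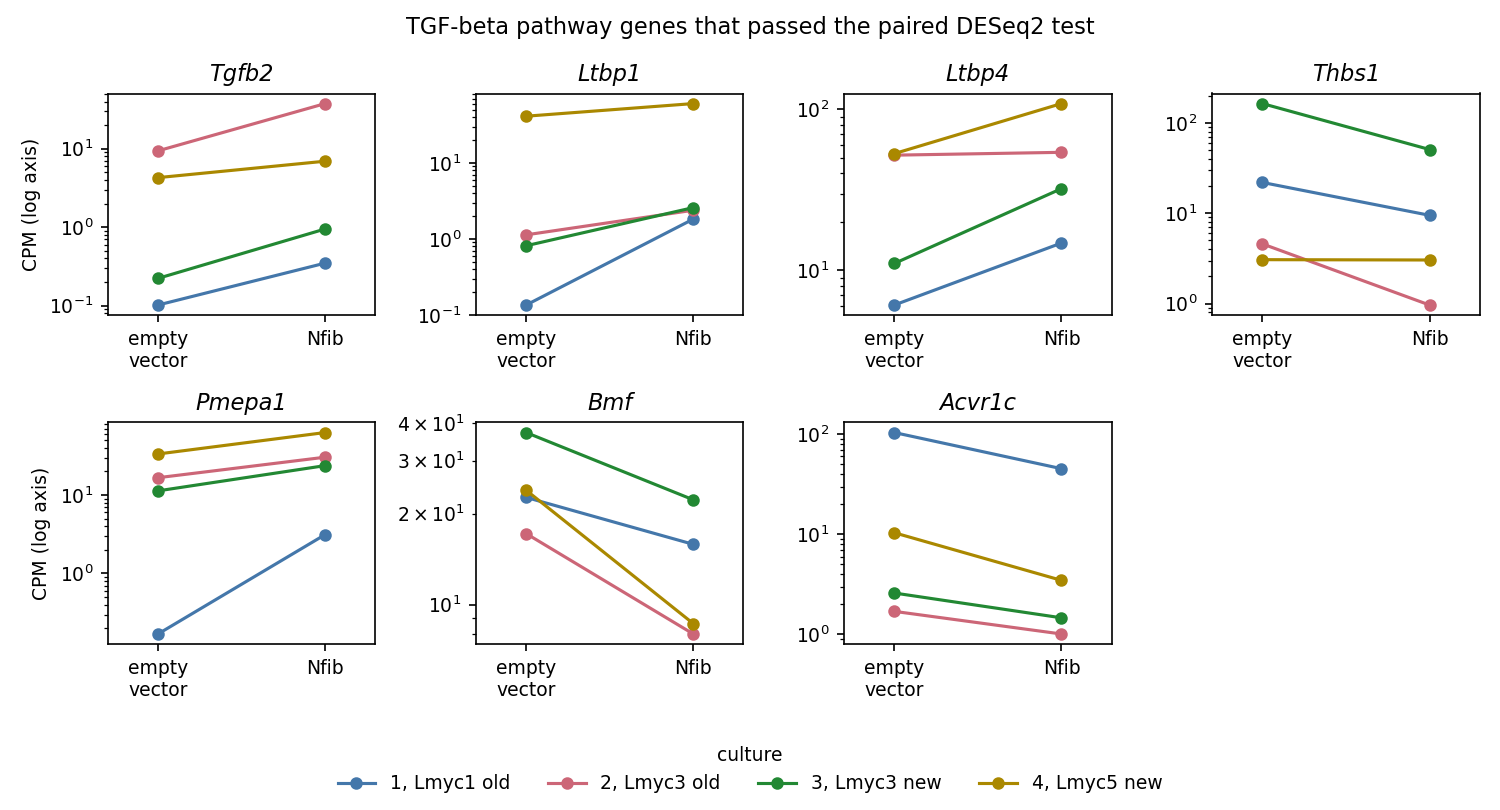
CPM (log axes) of Tgfb2 and of the 6 other pathway genes that passed the paired DESeq2 test, with empty vector and with Nfib; a line joins the 2 libraries of a culture. Tgfb2, Ltbp1, Ltbp4 and Pmepa1 are higher and Bmf and Acvr1c lower with Nfib in all 4 cultures, and Thbs1 is nearly level in culture 4.

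The paired edgeR test called none of these 6, with adjusted p-values between 0.131 (Acvr1c) and 0.258 (Ltbp1). Bmf passed in all 4 DESeq2 fits that left out 1 pair and Thbs1 and Acvr1c in 3, without replicates 3 (0.353) and 1 (0.271) respectively giving no call. Ltbp1 passed in 2 (not without replicate 3, 0.124, or 4, 0.244). Ltbp4 passed only without replicate 2 (1.27 on the log2 scale) and not without replicate 1 (0.0777), 3 (0.119) or 4 (0.117), and Pmepa1 passed only without replicate 1 (0.94), with adjusted p-values of 0.365, 0.542 and 0.0661 without replicates 2, 3 and 4. With the 2 pairs of Lmyc3 summed into 1, Pmepa1 lost its call (DESeq2 adjusted p of 0.385) and the other 5 passed.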

How the data were processed

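The authors deposited 1 table of read counts per Ensembl gene for 8 libraries, whole numbers that were not normalized. Per the labels' protocols the library kit was Illumina TruSeq RNA. Per the submitters' processing notes the tools were DESeq2, SAMtools 0.1.19, Bowtie 1.0.0 and TopHat2 2.1, with GRCm38 (mm10). How reads were assigned to genes, with or without strand and on which annotation, is not given in the sources used here, so reads of overlapping antisense genes may be mixed. Of the genotype, 1 further allele, and some genes of the lists and matches, are not reported here.

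Groups came from the source labels, replicate numbers from the titles and line names from the descriptions. The members, lists and tests were chosen with earlier results of these data known. The primary test was edgeR 4.0.16 (R 4.3.3, quasi-likelihood, original form, TMM, expression filter by group, 13380 genes, Benjamini-Hochberg at 0.05) without a block. Because it called no gene, members are described with DESeq2 1.42.0 with the replicate block, which left 260 adjusted p-values undefined. Same-numbered libraries come from the same culture and deviated together (r of 0.884 to 0.935, other combinations at most 0.0647). Cultures were tested with the arm as covariate and 2 libraries each, which are not independent cultures. Alternatives were limma 3.58.1 (voom), other scalings and filters, Lmyc3 pairs summed, and each pair left out. Exonic lengths are from GENCODE M21 (22423 of 22691 identifiers). Genes named from the lists are those that passed and the 2 of highest mean CPM in most lists, others being named for marker or readout status, and likeness was computed for members that passed or whose culture means differed over 4-fold.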

Additional observations from a re-analysis of the deposited data

Results flagged for a closer look

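In 4 of 22 sets of 4 libraries (10 members and Nfib, each arm apart) 1 library lay far from the others. All 4 were culture 2, namely Smad3 and Tgfbr2 in both arms. The 2 libraries of a culture deviate together, so these are not 4 separate results. How often chance would flag such sets was not tested. With empty vector Smad3 had 13.2 CPM there and at most 0.316 CPM in the other 3 libraries, and with Nfib it had 11.02 CPM against at most 0.690. Tgfbr2 had 0.283 CPM against at most 0.0370 with empty vector and 2.71 against at most 0.156 CPM with Nfib. Its empty vector value in culture 2 rests on 6 counts.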

How the results depend on the processing

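The count of genes called with Nfib depended on the test: 0 in the primary edgeR test and in edgeR with the replicate block, 3 with DESeq2 without the block, 3 with limma voom and the replicate block, 44 with edgeR's newer form and the block, 543 with DESeq2 and the replicate block, 525 with total-count scaling in that test and 458 with the Lmyc3 pairs summed. In fits on every gene with at least 1 count, added after the data were seen, the block gave 38 (edgeR) and 605 (DESeq2). Of the members, 0 were called in the primary test and 1, Tgfb2, in each of these DESeq2 fits with a block. Leaving out replicate 1, 2, 3 or 4 gave 355, 387, 232 and 253 genes and 0 to 1 members with DESeq2 and the block, and 0 genes in the primary test. The old or new interaction called 7 genes with DESeq2 and the replicate block, no member among them.

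Smad3, at -0.11 on the log2 scale without a block, where culture 2 sets the group means, was 0.85 with edgeR and the replicate block, 1.28 with DESeq2, 0.23 with voom, 0.12 with edgeR's newer form, 1.31 with total counts in DESeq2, 0.94 with the Lmyc3 pairs summed, and 0.85 (edgeR) and 1.28 (DESeq2) on every gene. Without replicates 1 to 4 in turn it was 0.88, 2.16, 0.81 and 1.43 with DESeq2 and the block and, in the primary test, between -0.18 (without replicate 3) and 1.81 (without replicate 2). Tgfb1, 0.22 in the primary test, was -0.067 in DESeq2 without replicate 4. None of these values had an adjusted p under 0.05. Members with few counts in most libraries, Tgfbr2 and Smad3, are limited by depth outside culture 2. Tgfb2 is limited in the same way in cultures 1 and 3.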

Other observations

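Some genes of the pathway lists, picked after their values were seen, also differed widely between cultures. Fn1, fibronectin, was at 30.5 to 92.3 CPM in cultures 2 and 4 and at most 0.644 CPM in cultures 1 and 3. Itgav, an integrin chain that binds latent TGF-beta, was at 25.3 and 16.3 CPM in culture 2, 4.73 and 5.34 in culture 4 and at most 0.982 elsewhere, and its partner chain Itgb8 was at 127 and 106 CPM in culture 4 and at most 11.9 elsewhere. Zeb1, a repressor linked to the mesenchymal state, was at 0.185 and 0.129 CPM in culture 3 and between 30.01 and 150.5 CPM in the other 3, culture 2 of the same line name among them. The edgeR test between cultures gave adjusted p-values of 0.00164 for Fn1, 0.000717 for Itgav, 0.000102 for Itgb8 and 2.6e-05 for Zeb1, beside the 76.7% of all genes that it called.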
